A study of Mus musculus with 22 samples.

Results

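The genes described here are 10 regulators and markers of the primitive endoderm, the extraembryonic cell layer of the mouse blastocyst: Gata6, Gata4, Sox17, Sox7 and Foxa2 (transcription factors), Pdgfra (a receptor), Dab2, Cubn and Amn (endocytic machinery) and Afp (a secreted protein). They were chosen by name, with earlier results of these data known. All 10 were measured among 18193 genes, and each was read from whichever of its probe sets had the highest mean over 22 arrays. Rex1GFPd2 mouse embryonic stem (ES) cells, a reporter line with green fluorescent protein at the locus of the pluripotency gene Zfp42 (Rex1), were grown in serum-free N2B27-type medium. Every culture received the MEK kinase inhibitor PD0325901 and a transfected siRNA, and RNA was taken 72 hours after transfection. The 2i control arm (7 arrays, of which 4 had control siRNA 1 and 3 had control siRNA 2) also had the GSK3 kinase inhibitor CHIR99021 throughout. In the PD-only control arm (7 arrays, with the same split of control siRNAs) CHIR99021 was dropped by a switch of medium at 24 hours. The PD-only YAP/TAZ arm (8 arrays, 4 for each of 2 siRNA mixes) had that same switch with siRNA against Yap1 and Wwtr1, which encode the transcriptional coactivators YAP and TAZ. A switch is given only for the PD-only arms, so its effect and that of losing CHIR99021 cannot be told apart. The replicates are labelled biological, with nothing on separate days, so p-values measure the spread between these arrays.

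The primitive endoderm and the epiblast segregate from a common inner cell mass, and FGF signalling through MEK and ERK favours the primitive endoderm while its inhibition favours the epiblast, from which ES cells derive. GATA6 is among the earliest factors of the lineage and is mutually antagonistic with the epiblast factor NANOG, and SOX17, GATA4 and SOX7 follow. The layer matures into visceral endoderm, which takes up maternal nutrients through the receptors cubilin and megalin, and parietal endoderm, which lays down basement membrane.

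The cultures read as ES cells by their defining markers. All 8 ES cell (epiblast) markers lay above the near-silent range of the arrays in every arm, with Nanog at 13.14 in 2i control, 12.63 in PD-only control and 12.91 under YAP/TAZ siRNA (mean RMA log2 values). They were lowest in PD-only control: by limma (Benjamini-Hochberg adjusted p below 0.05 over all genes) 8 of 8 were higher in 2i control and 6 of 8 under YAP/TAZ siRNA, and 0 were lower. Over all genes, 31.3% were higher and 26.7% lower in 2i control, and 35.5% higher and 26.3% lower under YAP/TAZ siRNA. Tfcp2l1, a target of GSK3 inhibition in ES cells, averaged 11.83 in 2i control, 10.25 in PD-only control and 11.61 under YAP/TAZ siRNA, and the summed linear level of the list was 51599 to 54743, 36230 to 37543 and 45051 to 46239 in these arms. That range was taken from 71 olfactory and vomeronasal receptor genes, of which the 95th percentile was 4.98, 4.89 and 4.98 in the 3 arms. It is a yardstick for dim probe sets and no detection call. Yap1 averaged 11.04 in PD-only control and 9.77 under YAP/TAZ siRNA, a difference of -1.27 ± 0.03 (SE). Wwtr1 averaged 10.28 and 9.25, a difference of -1.04 ± 0.03. Both RNAs were thus lower and still read above the near-silent range. The arrays do not measure protein, so how complete the depletion was is not known from them. The Actb 3′ minus 5′ value, which grows as RNA degrades, was 0.717 ± 0.035 (SD, n = 7) in PD-only control against 0.966 ± 0.104 (n = 7) in 2i control and 0.975 ± 0.062 (n = 8) under YAP/TAZ siRNA. The poly-A spike controls of the arrays set 2i control apart instead. They averaged 8.96 ± 0.15 there (SD, lowest 8.82), 8.52 ± 0.17 in PD-only control (highest 8.675) and 8.43 ± 0.12 under YAP/TAZ siRNA (highest 8.63). What part this technical difference has in the values was not tested.

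Dab2, the endocytic adaptor, was the outstanding gene of the 10: it was high in PD-only control cells yet low in both other arms. Gata6, Foxa2, Amn and Cubn had the same pattern with smaller differences, while Gata4, Sox7, Sox17 and Afp did not pass the test in any comparison of arms. Against PD-only control, 6 of the 10 genes were lower in 2i control and 0 were higher by limma (Benjamini-Hochberg adjusted p below 0.05 over all genes), and 5 were lower and 0 higher under YAP/TAZ siRNA. Over all genes, 26.7% were lower and 31.3% higher in 2i control, and 26.3% were lower and 35.5% higher under YAP/TAZ siRNA. The 10 genes were chosen with earlier results known, so here and below such shares are a backdrop and no test. The median difference of the 10 genes was -0.37 in 2i control, where that of all genes was 0.04, and -0.26 under YAP/TAZ siRNA, where that of all genes was 0.06. These comparisons share the 7 PD-only control arrays, so their values are given side by side and their likeness was not tested. In bulk RNA, fewer cells of a type and less RNA per cell cannot be told apart.

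**Figure D1:**
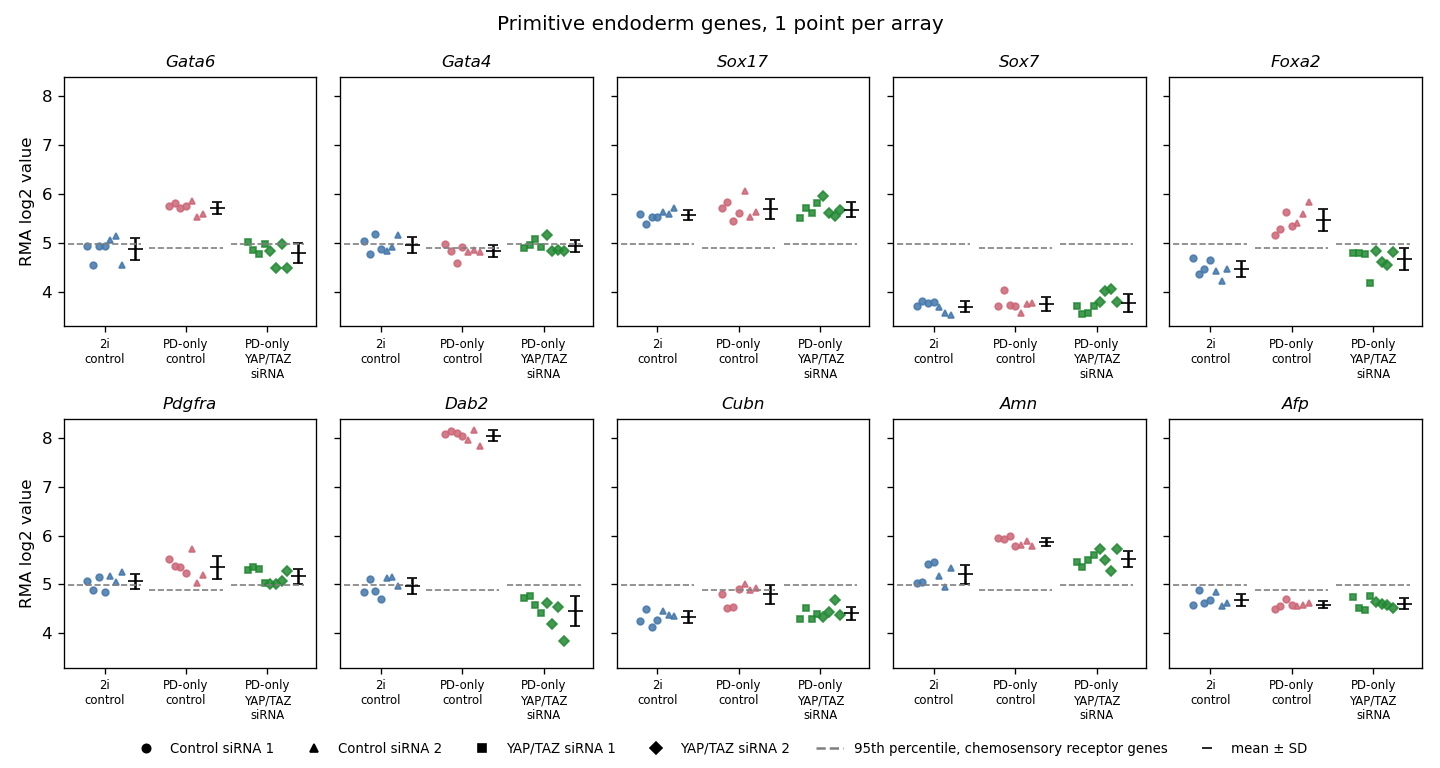
RMA log2 values (vertical axis) of the 10 genes on each array by arm; the symbol gives the siRNA, the bar beside each arm is the mean ± SD (n = 7, 7 and 8), and the dashed line is the 95th percentile of the chemosensory receptor genes in that arm. Dab2 alone reached about 8 in PD-only control, with arrays from 7.83 to 8.15, and Sox7 lay below the dashed line on every array.

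Most of these genes lay near the bottom of the array scale. In 2i control, 3 of 10 arm means were above the receptor reference (Sox17, Pdgfra and Amn), in PD-only control 6 were (Gata6, Dab2 and Foxa2 in addition), and under YAP/TAZ siRNA again 3 (Sox17, Pdgfra and Amn). The median of all genes was 6.58 in 2i control, 6.71 in PD-only control and 6.57 under YAP/TAZ siRNA, and Dab2 in PD-only control was the 1 arm mean of the 10 genes above it. Gata4, Sox7, Cubn and Afp were not above the receptor reference in any arm mean. For these genes the arrays give little room to show a fall, and a log2 difference between dim values understates a change by an unknown amount.

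Gata6, the early lineage factor that antagonises NANOG, was higher in PD-only control than in either other arm. Its values ran from 4.55 through a median of 4.94 to 5.13 in 2i control, from 5.52 through 5.76 to 5.86 in PD-only control, and from 4.49 through 4.85 to 5.01 under YAP/TAZ siRNA. Every PD-only control array lay above every array of the other arms, which overlapped each other. The limma difference was -0.83 ± 0.10 (SE) in 2i control (1.78-fold lower; adjusted p = 2.33e-07) and -0.91 ± 0.09 under YAP/TAZ siRNA (1.88-fold lower; adjusted p = 3.32e-08). YAP/TAZ siRNA minus 2i control gave -0.08 ± 0.09, with a 95% interval from -0.27 to 0.12. The other 2 Gata6 probe sets, at arm means of 3.59 to 4.5, were not called in any comparison, and with the mean of all 3 probe sets the differences were -0.29 and -0.31 (limma adjusted p = 3.08e-05 and 1.13e-05).

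Foxa2, a forkhead factor of visceral and definitive endoderm, had the second largest difference in 2i control. Its arrays ran from 4.23 through a median of 4.46 to 4.69 in 2i control, from 5.17 through 5.41 to 5.84 in PD-only control, and from 4.17 through 4.79 to 4.84 under YAP/TAZ siRNA. The PD-only control arrays again stood apart from both other arms. Foxa2 differed by -1.03 ± 0.10 in 2i control (limma, 2.04-fold lower; adjusted p = 2.09e-08) and by -0.81 ± 0.10 under YAP/TAZ siRNA (1.76-fold lower; adjusted p = 3.40e-07). Between YAP/TAZ siRNA and 2i control it differed by 0.22 ± 0.10 (95% interval 0.01 to 0.42; adjusted p = 0.0779). That last comparison lay near the threshold, and 3 of 30 alternative settings called it. Without replicate D of YAP/TAZ siRNA 1, the lowest Foxa2 value at 4.17, the difference was 0.29 (limma adjusted p = 0.00414). With all arrays kept, a variance trend and robust prior gave 0.22 (limma adjusted p = 0.0436).

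Gata4, which acts downstream of GATA6 in the lineage, stayed within a narrow band. Its lowest, median and highest values were 4.77, 4.91 and 5.18 in 2i control, 4.58, 4.84 and 4.97 in PD-only control, and 4.84, 4.91 and 5.16 under YAP/TAZ siRNA. All arms overlapped. The differences from PD-only control were 0.14 ± 0.07 in 2i control (95% interval -0.02 to 0.29; limma adjusted p = 0.127) and 0.11 ± 0.07 under YAP/TAZ siRNA (-0.04 to 0.26; adjusted p = 0.182). Its second probe set gave 0.14 ± 0.08 in both comparisons and was not called.

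Sox17 and Sox7 are SOX-F factors of the lineage, and Sox17 also marks definitive endoderm and endothelium. The brightest Sox17 probe set ran from 5.38 through 5.58 to 5.71 in 2i control, from 5.45 through 5.62 to 6.06 in PD-only control, and from 5.50 through 5.64 to 5.96 under YAP/TAZ siRNA. These ranges overlapped, and the differences of -0.12 ± 0.08 and -0.02 ± 0.08 were not called (limma adjusted p = 0.235 and 0.867). The dimmer Sox17 probe set behaved otherwise: it averaged 4.22 ± 0.17 (SD, n = 7) in PD-only control against 3.39 ± 0.12 (n = 7) for 2i and 3.40 ± 0.13 (n = 8) for YAP/TAZ siRNA. All 7 PD-only control arrays (3.93 to 4.40) lay above all arrays of the other arms (at most 3.60), and the limma differences over all probe sets were -0.83 ± 0.08 (adjusted p = 7.83e-09) and -0.81 ± 0.07 (adjusted p = 5.35e-09). The suffix of that probe set marks it as one whose probes may match other transcripts, and its arm means were below the receptor reference. With the mean of both probe sets the Sox17 differences became -0.47 and -0.41 and passed the test.

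Sox7 was the dimmest of the 10 genes. Its arrays ran from 3.53 through 3.71 to 3.82 in 2i control, from 3.56 through 3.73 to 4.03 in PD-only control, and from 3.54 through 3.76 to 4.06 under YAP/TAZ siRNA. The arms overlapped, with differences from PD-only control of -0.06 ± 0.06 (95% interval -0.18 to 0.06) and 0.03 ± 0.06 (-0.09 to 0.15). Its other probe set, dimmer still at arm means of 2.81 to 3.05, was lower in 2i control by a difference of -0.25 ± 0.05 (limma over all probe sets, adjusted p = 0.000341) and was not called under YAP/TAZ siRNA (-0.10 ± 0.05, adjusted p = 0.107). Gata4 and Sox7 lie on the same chromosome with 6 protein-coding genes between them in the RefSeq annotation.

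Pdgfra, the receptor tyrosine kinase for PDGF that marks primitive endoderm precursors and supports their survival, was lower in 2i control by a small margin. Its values ran from 4.84 through 5.07 to 5.25 in 2i control, from 5.03 through 5.35 to 5.72 in PD-only control, and from 5.0 through 5.18 to 5.36 under YAP/TAZ siRNA. All arms overlapped. The limma difference was -0.27 ± 0.09 in 2i control (adjusted p = 0.0140) and -0.17 ± 0.09 under YAP/TAZ siRNA (95% interval -0.35 to 0.01; adjusted p = 0.0885). Without replicate A of PD-only control siRNA 2, the highest array at 5.72, the first difference was -0.17 (adjusted p = 0.0533). The call was also lost with the Actb 3′ minus 5′ difference in the model (-0.33, adjusted p = 0.124), with control siRNA 2 alone (-0.15, adjusted p = 0.432) and with the mean of all 3 probe sets (0.0081, adjusted p = 0.917). Both other Pdgfra probe sets had differences of the opposite sign, 0.10 ± 0.08 and 0.20 ± 0.08 in 2i control, neither called, and 0.14 ± 0.08 and 0.29 ± 0.08 under YAP/TAZ siRNA, of which the second was called higher (adjusted p = 0.00493 over all probe sets). The lower Pdgfra value in 2i control thus rests on 1 probe set.

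Dab2 encodes a clathrin adaptor that binds the tails of LDL-receptor family members, megalin among them, and is required in visceral endoderm for their uptake from the surface. It is also known to bind Axin and Dishevelled and to restrain Wnt signalling. In 2i control its values were 4.85, 5.11, 4.86 and 4.71 with control siRNA 1 and 5.13, 5.15 and 4.97 with control siRNA 2. In PD-only control they were 8.07, 8.13, 8.10 and 8.04 with control siRNA 1 and 7.95, 8.15 and 7.83 with control siRNA 2. With YAP/TAZ siRNA they were 4.73, 4.77, 4.59 and 4.42 with mix 1 and 4.63, 4.19, 4.54 and 3.85 with mix 2. The lowest PD-only control array was more than 2 log2 units above the highest array of either other arm, and both siRNAs of each kind gave the same picture.

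Dab2 averaged 8.04 ± 0.11 (SD, n = 7) in PD-only control, 4.97 ± 0.17 (n = 7) for 2i and 4.46 ± 0.31 (n = 8) for YAP/TAZ siRNA, which are the 64.0, 30.1 and 23.0 percentiles of all genes. The limma difference from PD-only control was -3.05 ± 0.10 in 2i control (8.27-fold lower; adjusted p = 2.72e-16) and -3.57 ± 0.09 under YAP/TAZ siRNA (11.8-fold lower; adjusted p = 9.09e-18). By size these ranked 115 and 68 among 18193 genes. Dab2 and Foxa2 were the 2 genes of the 10 with a 2-fold or larger called difference in 2i control, and Dab2 the 1 gene under YAP/TAZ siRNA, where 5.81% and 6.37% of all genes had one. The means of both low arms lay under the receptor reference. The size depended on the probe set, though not the call: with the mean of all 4 probe sets the differences were -1.43 and -1.57. A further setting left out suffixed probe sets, those whose names end in _x_at, _s_at or _a_at. It drops the brightest Dab2 probe set for its _a_at name, and whether that probe set cross-hybridises was not tested. The differences were then -0.84 and -0.82 (limma adjusted p = 7.25e-08 and 4.62e-08).

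All 4 Dab2 probe sets were lower in both comparisons. After the brightest, the differences in 2i control and under YAP/TAZ siRNA were, in order of brightness, -0.32 ± 0.05 and -0.20 ± 0.05, then -0.84 ± 0.09 and -0.82 ± 0.09, then -1.54 ± 0.07 and -1.67 ± 0.07. Their adjusted p over all probe sets was 0.00139 or less. None of these 3 probe sets had an arm mean above the receptor reference, the highest being 4.69 in PD-only control. Among the 15 further probe sets of the 10 genes, 5 were lower and 0 higher in 2i control, and 4 lower and 1 higher under YAP/TAZ siRNA, where 54.5% and 56.6% of all 34945 probe sets were called in either direction.

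**Figure D2:**
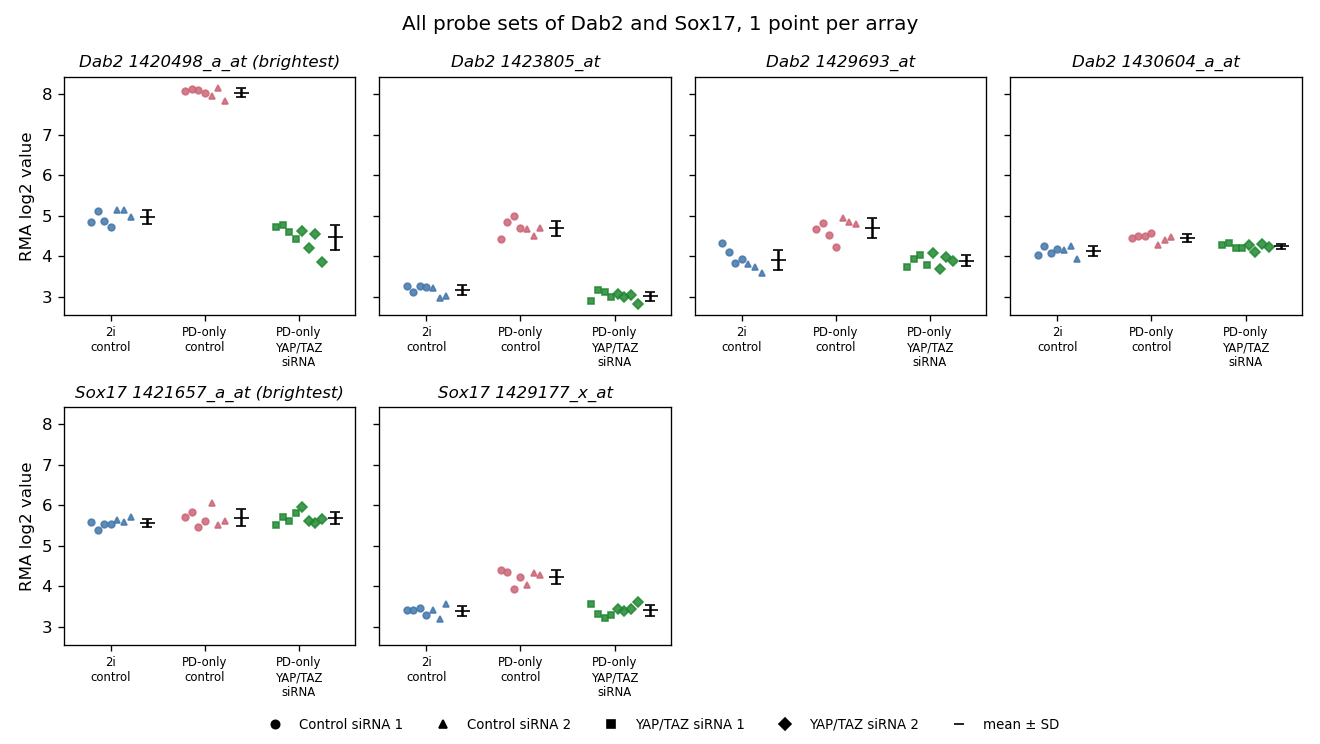
RMA log2 values (vertical axis) of the 4 Dab2 and 2 Sox17 probe sets on each array by arm, with the mean ± SD beside each arm (n = 7, 7 and 8) and symbols for the siRNA. The 4 Dab2 probe sets share the direction and differ in size, whereas of the 2 Sox17 probe sets the dimmer one separates PD-only control and the brighter one does not.

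Dab2 has 2 annotated starts, and the 250 bases upstream of each are shown because Dab2 carried the largest differences. They come from RefSeq (GRCm38.p6), at chr15:6299539-6299788 and chr15:6386498-6386747, both on the plus strand and written 5′ to 3′. Capitals mark matches on either strand to GATA-factor letters (AGATAA or AGATAG or TGATAA or TGATAG), TEAD letters (GGAATG; TEAD proteins carry YAP and TAZ to DNA) or TCF/LEF letters (CTTTGAA or CTTTGAT).
Dab2 start 1: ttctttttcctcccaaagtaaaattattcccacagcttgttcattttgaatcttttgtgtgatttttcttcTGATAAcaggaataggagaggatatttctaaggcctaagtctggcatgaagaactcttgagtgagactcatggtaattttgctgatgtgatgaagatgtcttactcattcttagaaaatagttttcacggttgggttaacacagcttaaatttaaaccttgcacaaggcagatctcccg
Dab2 start 2: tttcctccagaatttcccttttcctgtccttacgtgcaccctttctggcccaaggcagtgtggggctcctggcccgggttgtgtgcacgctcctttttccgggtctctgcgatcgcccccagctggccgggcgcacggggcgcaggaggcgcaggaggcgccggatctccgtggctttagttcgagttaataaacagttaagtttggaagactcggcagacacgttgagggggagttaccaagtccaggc
The first window is AT-rich (36.8% G or C) and holds 1 GATA match, beginning at position -179 from the start. The second is 60% G or C and holds none of the searched letters. Windows were at hand for 6 of the 10 genes (Pdgfra, Dab2, Cubn, Amn, Foxa2 and Afp), 9 in all. GATA letters were in 2 of the 9, Dab2 start 1 and Foxa2 start 3 (position -183), and in 26.5% of 32851 windows of the same length. TEAD letters were in 0 of the 9 and in 12.6% of all windows. A match is a run of letters, and neither a match nor its lack tells whether a factor binds.

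Cubn and Amn encode the 2 parts of the cubam receptor: cubilin, a large extracellular protein that binds vitamin B12 with intrinsic factor and other ligands, and amnionless, the membrane protein that anchors it. Both were higher in PD-only control. Amn ran from 4.95 through 5.17 to 5.46 in 2i control, from 5.79 through 5.89 to 5.99 in PD-only control, and from 5.27 through 5.50 to 5.73 under YAP/TAZ siRNA. No PD-only control array overlapped the other arms, and the YAP/TAZ arrays overlapped the upper part of the 2i range. The difference of Amn from PD-only control was -0.67 ± 0.08 in 2i control (1.59-fold lower; limma adjusted p = 5.75e-07) and -0.35 ± 0.08 under YAP/TAZ siRNA (1.28-fold lower; adjusted p = 0.000710). Amn has 1 probe set.

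Cubn ran from 4.13 through 4.36 to 4.5 in 2i control, from 4.52 through 4.89 to 5.02 in PD-only control, and from 4.29 through 4.39 to 4.69 under YAP/TAZ siRNA. The 2i arrays lay just under the PD-only control arrays, a gap of the second decimal, and the YAP/TAZ arrays overlapped them. The differences were -0.47 ± 0.07 in 2i control (limma adjusted p = 5.99e-06) and -0.40 ± 0.07 under YAP/TAZ siRNA (adjusted p = 2.63e-05). The other Cubn probe set, the one left when suffixed probe sets are dropped, differed by -0.06 and -0.12 and was not called (limma adjusted p = 0.583 and 0.215). The mean of both gave -0.27 and -0.26, which passed the test. When the Actb 3′ minus 5′ difference entered the model, the YAP/TAZ difference was -0.30 (adjusted p = 0.0719). Of the 9 windows, that of Cubn held the TCF/LEF letters, which 7.48% of all windows hold; TCF and LEF proteins carry beta-catenin to DNA, and GSK3 inhibition stabilises beta-catenin. It is shown for that reason (RefSeq GRCm38.p6, chr2:13491877-13492126, minus strand, 5′ to 3′), with the matches at positions -205 and -37 in capitals.
Cubn start 1: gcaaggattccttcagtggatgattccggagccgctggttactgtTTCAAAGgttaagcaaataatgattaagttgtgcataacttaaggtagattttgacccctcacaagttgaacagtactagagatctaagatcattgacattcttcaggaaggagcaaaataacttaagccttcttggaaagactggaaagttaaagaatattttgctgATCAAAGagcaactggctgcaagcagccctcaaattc
The matches are a description of the letters. Cubn was lower than in PD-only control in the 2i arm with CHIR99021 and also in the YAP/TAZ arm without it. All its arm means lay under the receptor reference, and whether beta-catenin has a part in its values was not tested.

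Afp, alpha-fetoprotein, is secreted by mature visceral endoderm. Its values ran from 4.57 through 4.63 to 4.88 in 2i control, from 4.49 through 4.58 to 4.70 in PD-only control, and from 4.47 through 4.60 to 4.77 under YAP/TAZ siRNA. The arms overlapped and were not above the receptor reference. The differences from PD-only control were 0.10 ± 0.06 in 2i control (95% interval -0.02 to 0.22; limma adjusted p = 0.159) and 0.02 ± 0.06 under YAP/TAZ siRNA (-0.10 to 0.14; adjusted p = 0.758), and none of its 5 probe sets was called.

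**Figure D3:**
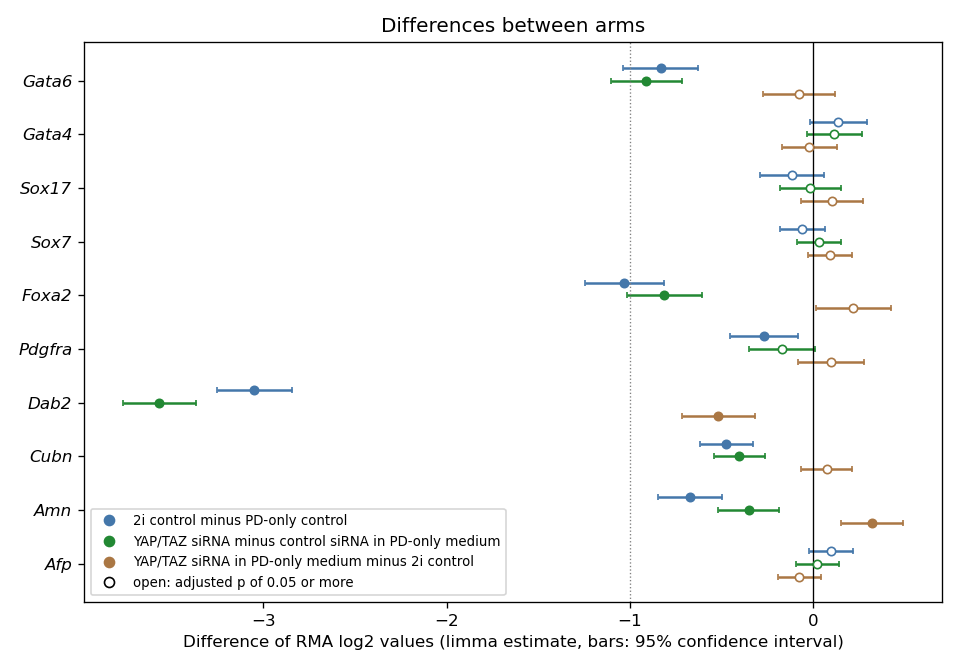
Differences of RMA log2 values (horizontal axis; limma estimates with 95% confidence intervals) of the 10 genes in the 3 comparisons of arms; filled points have an adjusted p below 0.05 and the dotted line marks a 2-fold lower value. Dab2 lies at -3.05 and -3.57 against PD-only control, and Gata4, Sox7, Sox17 and Afp have open points in all comparisons.

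Counted over arrays, 5 of the 10 genes (Gata6, Dab2, Cubn, Amn and Foxa2) had every 2i control array below every PD-only control array and 0 had the reverse, where 19% and 18.7% of all genes did. For YAP/TAZ siRNA against PD-only control, 4 (Gata6, Dab2, Amn and Foxa2) were separated downward and 0 upward, against 19.3% and 21.1% of all genes.

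YAP/TAZ siRNA in PD-only medium and control siRNA in 2i gave close values for most of the 10 genes. In both arms only the means of Sox17, Pdgfra and Amn were above the receptor reference. For the other genes, values so near the bottom of the scale leave little room for a difference. Their closeness therefore does not show that the RNA levels were alike. Dab2 was lower under YAP/TAZ siRNA, by a difference of -0.52 ± 0.09 (limma adjusted p = 0.000102) between 2 means that both lay under the receptor reference, so no fold is given, and Amn was higher, by 0.32 ± 0.08 (1.25-fold; adjusted p = 0.00228). So 1 of 10 was higher and 1 lower, where 25.5% and 22.8% of all genes were, and 0 of 10 differed by 2-fold or more, where 1.51% of all genes did. The arrays of these arms overlapped for all 10 genes, Dab2 and Amn included, while 14.9% of all genes were separated upward and 13.3% downward. For the 8 genes not called, 95% intervals reached no further than 0.42 on the log2 scale, the upper bound for Foxa2. The Dab2 call rested on its brightest probe set: the other 3 differed by -0.13, 0.01 and 0.12 and were not called. Among the 15 further probe sets, 1 (of Sox7) was higher and 0 lower, where 44.3% of all probe sets were called.

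No gene was called between siRNAs of 1 kind. The difference between the media was compared between control siRNA 1 and control siRNA 2, and YAP/TAZ mix 2 with mix 1; limma called 0 of the 10 genes in each, and 0% and 0% of all genes. At an unadjusted p below 0.05, 1 of the 10 (Foxa2, 0.43 ± 0.20) and 2 of the 10 (Sox7, 0.28 ± 0.08, and Dab2, -0.33 ± 0.13) differed, against 5.22% and 3.57% of all genes. Dab2 averaged 4.63 ± 0.16 with mix 1 and 4.30 ± 0.36 with mix 2 (SD, n = 4 each).

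The values above depend on how the arrays are scaled. The median of all gene values on an array differed by -0.12 in 2i control minus PD-only control and by -0.14 in YAP/TAZ siRNA minus control siRNA, and setting it to a common value removed those differences, which moved every gene's difference upward by the same amount. Under that scaling Dab2, Gata6, Foxa2, Amn and Cubn were still called lower in both comparisons, Gata4 and Afp were called higher in both, and Sox7 was called higher under YAP/TAZ siRNA. Pdgfra in 2i control lost its call (-0.15, adjusted p = 0.131).

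Other genes of the extraembryonic endoderm were read from a list of 31, of which 29 were measured. This list, too, was chosen with earlier results of these data known. In 2i control 14 were lower and 9 higher than in PD-only control, where 26.7% and 31.3% of all genes were, and under YAP/TAZ siRNA 17 were lower and 7 higher, where 26.3% and 35.5% of all genes were. A 2-fold or larger called difference was seen for 11 lower genes and 1 higher gene (Srgn, 1.21 ± 0.03) in 2i control and for 12 lower and 0 higher genes under YAP/TAZ siRNA, against 5.81% and 6.37% of all genes in either direction. The median differences were -0.19 and -0.57. Lrp2 (megalin), the receptor that works with cubilin and is carried by Dab2, averaged 6.73 in 2i control, 10.23 in PD-only control and 6.69 under YAP/TAZ siRNA, with limma differences of -3.50 ± 0.05 (adjusted p = 4.15e-22) and -3.54 ± 0.05 (adjusted p = 1.94e-22). The basement membrane collagen gene Col4a2 differed by -3.75 ± 0.05 and -4.21 ± 0.05, and Bmp2, a ligand of the transforming growth factor family, by -4.12 ± 0.07 and -3.84 ± 0.07. Hnf4a and Apoe, genes of the visceral endoderm and liver, went the other way, Hnf4a by 0.53 ± 0.07 and 0.72 ± 0.06 and Apoe by 0.60 ± 0.04 and 0.46 ± 0.04. The basement membrane genes were not uniform. Lama1 averaged 7.17 in 2i control, 6.58 in PD-only control and 7.01 under YAP/TAZ siRNA, and Nid2 averaged 11.57, 11.05 and 11.54. Both had their lowest mean in PD-only control, whereas Col4a1, Lamb1 and Lamc1 had their highest there. Collagen, laminin and Sparc transcripts of this list are also made by many cells outside this lineage.

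Lists of relatives and partners of the 10 genes held called genes in both directions. They are short, and their counts stand against 26.7% lower and 31.3% higher of all genes in 2i control and 26.3% and 35.5% under YAP/TAZ siRNA, so shares near these are not a result about a list. Of 7 other GATA, FOG and SOX-F genes, 5 were lower and 1 higher in 2i control, and 4 lower and 1 higher under YAP/TAZ siRNA. Gata3, a trophoblast factor, differed by -2.49 ± 0.06 and -3.13 ± 0.05, and the FOG gene Zfpm2, a GATA4 cofactor, by 0.60 ± 0.10 and 0.41 ± 0.10. Of 6 PDGF ligand and receptor genes, 2 were higher and 4 lower in each comparison; Pdgfa, a ligand of the receptor that Pdgfra encodes, was higher by 1.18 ± 0.02 and 0.80 ± 0.02, while Pdgfrb differed by -1.70 ± 0.08 and -1.63 ± 0.07. Of 7 clathrin adaptor and partner genes, 3 were higher and 4 lower in 2i control, and 2 higher and 5 lower under YAP/TAZ siRNA; Dab1, the neuronal relative of Dab2, was higher by 1.13 ± 0.09 and 1.10 ± 0.08. Of 10 FOXA and mesendoderm genes, 1 was higher and 4 lower in 2i control, and 5 higher and 4 lower under YAP/TAZ siRNA, Foxa1 at -0.82 ± 0.08 and -1.02 ± 0.07. Of 11 FGF to ERK genes, 5 were higher and 4 lower in 2i control, and 4 higher and 3 lower under YAP/TAZ siRNA. Fgfr2, an FGF receptor of the primitive endoderm, differed by -2.43 ± 0.04 and -0.96 ± 0.04. Fgfr1, another FGF receptor gene, averaged 8.61 in 2i control, 9.18 in PD-only control and 8.83 under YAP/TAZ siRNA.

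**Figure D4:**
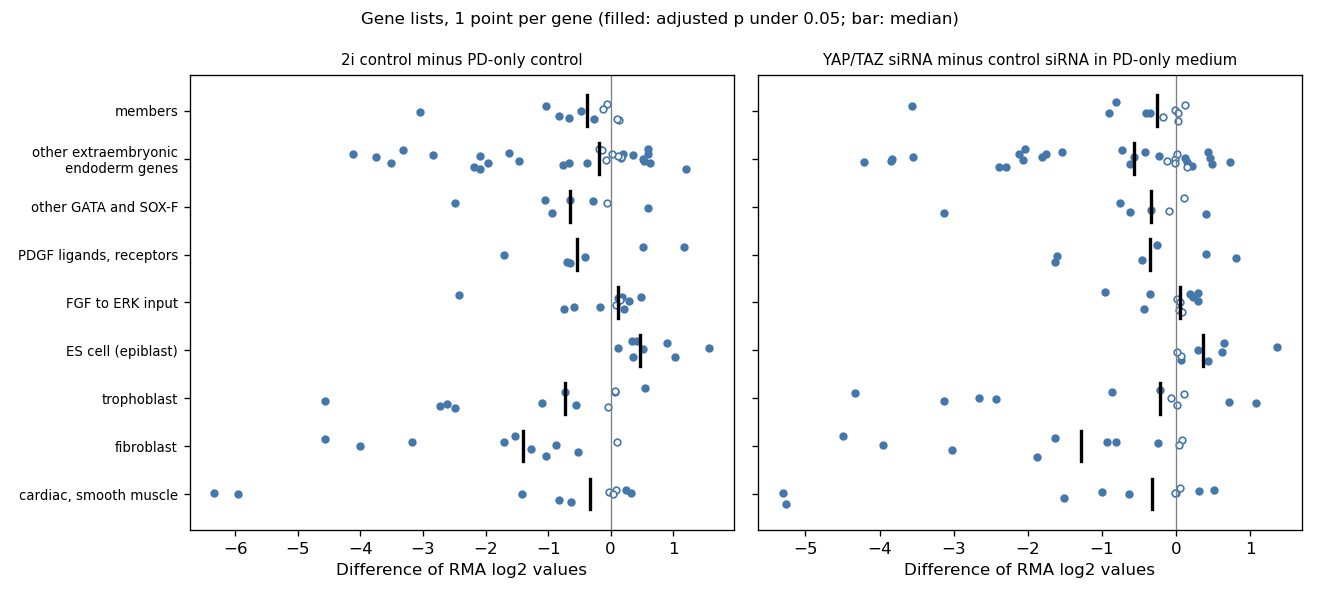
Differences of RMA log2 values (horizontal axis) for each gene of the lists, 1 point per gene, in 2i control minus PD-only control (left) and YAP/TAZ siRNA minus control siRNA in PD-only medium (right); filled points have an adjusted p below 0.05 and the bar is the list's median. The 10 genes described here have medians of -0.37 and -0.26. The other extraembryonic endoderm, trophoblast, fibroblast and cardiac and smooth muscle lists spread to lower values, the last of them furthest.

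Many markers of other cell types, though not all, were higher in the same PD-only control arm. The counts of these lists stand against 26.7% lower and 31.3% higher of all genes in 2i control, and 26.3% and 35.5% under YAP/TAZ siRNA. These lists are short too, so shares near these are not a result about a list. Fibroblast markers were lower than in PD-only control for 9 of 10 genes in 2i control and 8 of 10 under YAP/TAZ siRNA, and 0 were higher. Their summed linear level was 308 to 359 in 2i control, 2021 to 2213 in PD-only control and 397 to 435 under YAP/TAZ siRNA. Trophoblast markers were lower for 7 of 11 and 6 of 11, with sums of 897 to 941, 2262 to 2559 and 1508 to 1789, while Cdx2 was higher in 2i control and Cdx2 and Tfap2c were higher under YAP/TAZ siRNA. Cardiac and smooth muscle markers were lower for 5 of 10 and higher for 2 of 10 (Hand2 and Myl7) in both, with sums of 603 to 645, 21991 to 23648 and 846 to 919, in PD-only control most of it from Tagln and Acta2, actin cytoskeleton genes. Lum among the fibroblast markers, Elf5 and Tpbpa among the trophoblast markers, and Tnnt2 and Mef2c among the cardiac markers lay below the receptor reference in every arm. The ES cell markers, given above, were lowest in that arm. The part of all these markers, and of the Actb 3′ minus 5′ value that sets the same arm apart, in the values of the 10 genes was not tested. With that Actb value as a covariate, 5 of the 10 genes were called lower in 2i control and 4 under YAP/TAZ siRNA, Dab2 at -3.13 and -3.65. The share of all genes called in that fit was not counted, so these counts stand without it. The Actb value ran from 0.66 to 0.75 in PD-only control, 0.87 to 1.19 in 2i control and 0.88 to 1.07 under YAP/TAZ siRNA. PD-only control thus does not overlap the other arms, so fits with this covariate cannot tell it apart from the arm, whether a call stays or is lost.

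Genes whose values over the 22 arrays were most like those of Dab2 were Ptpn14 (Pearson r = 0.993), Synpo2l (0.992) and Ildr2 (0.992), and most like those of Foxa2 were Cldn1 (0.960), Mapre1 (0.928) and Dgat2 (0.926). The points are arrays of 3 arms that share medium and siRNA, so r mostly records the arm means. Ptpn14 averaged 8.51 in 2i control, 10.62 in PD-only control and 8.11 under YAP/TAZ siRNA, and Cldn1, a tight junction gene, averaged 3.40, 4.35 and 3.58.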

How the data were processed

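Biotin-labelled RNA of 22 cultures was hybridised to Affymetrix 3′ expression arrays, 1 sample and 1 colour per array, per the labels' protocols. The deposited values are log2 expression per probe set; RMA is named in the submitters' processing notes, with its version not given in the sources used here. RMA usually corrects background, makes the arrays' distributions alike and summarises probes, which hides shifts of total RNA per cell, and it gives no detection call. The number of arrays limits the precision.

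Of 45101 probe sets, 34945 had 1 symbol, 932 several and 9160 were not listed, 64 controls apart; Entrez identifiers of 34741 matched RefSeq. Each of 18193 genes took its brightest probe set. A limma 3.58.1 model (R 4.3.3) had 1 mean for each of 6 groups of medium and siRNA, with arms as equal-weight averages of their siRNA groups, 16 residual and 3.1 prior degrees of freedom, and Benjamini-Hochberg adjustment over all genes. Errors of differences are standard errors and those of means SDs. No scan date was used. The fit was tested on simulated data. Upstream sequence was searched in 250-base windows from RefSeq, and figures used matplotlib 3.10.9 (Python 3.11.15, pandas 2.3.3).

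Members and lists were chosen with earlier results of these data known. Named were the 10 genes, Yap1 and Wwtr1, from each list up to 6 called genes with the largest differences and those a result turned on, and for genes whose arm means differed by 1 or more the 3 most correlated genes. Nanog, Tfcp2l1, Hnf4a, Apoe, Srgn, Lama1, Nid2, Lamb1, Lamc1, Fgfr1 and the markers named singly for other cell types were named after their values were seen. Alternatives covered probe set choice, dim genes, scaling, the variance model, array weights, siRNA blocking (statmod 1.5.0), the replicate block, arrays left out and each siRNA alone.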

Additional observations from a re-analysis of the deposited data

Results flagged for a closer look

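Dixon's test on the arrays of an arm or siRNA group marked 6 of 70 sets for the 10 genes, where chance marks about 1 in 20. Foxa2 was marked in the YAP/TAZ arm and again within mix 1, both through 1 array, replicate D of mix 1, whose value of 4.17 compares with 4.78 to 4.80 on the other arrays of that mix. Gata4 was marked in PD-only control for its lowest array (4.58, control siRNA 1 replicate C) and in YAP/TAZ mix 2 for its highest (5.16, replicate A). Gata6 was marked in 2i control siRNA 1 for its lowest array (4.55, replicate B), and Sox7 in PD-only control siRNA 1 for its highest (4.03, replicate B). The marked values belong to genes near the bottom of the array scale, and Dab2, Amn, Cubn, Pdgfra, Sox17 and Afp had none.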

How the results depend on the processing

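Dab2, Gata6, Foxa2 and Amn stayed lower than in PD-only control in 2i control and under YAP/TAZ siRNA, past the threshold, under every alternative that could be fitted for them. The filter on dim genes kept 1 of the 10 genes, Dab2, which passed through its PD-only control level, so the counts it left (1 lower in each comparison with PD-only control, 0 higher in YAP/TAZ siRNA minus 2i control) support nothing and the other 9 genes were not tested. For the alternative fits the share of all genes called was not counted, so their counts stand without it. Centring each array on its median gave 2 genes higher in 2i control and 3 under YAP/TAZ siRNA. In YAP/TAZ siRNA minus 2i control, 2 genes were higher with the mean of all probe sets or with a variance trend and robust prior. In that comparison 3 were higher with mix 2 alone and 1 to 2 with single arrays left out, while 0 were lower without suffixed probe sets. With mix 2 alone 1 gene was higher than in PD-only control. Changes of sign fell on differences that were not called in either setting, apart from Dab2 and Pdgfra. Without suffixed probe sets Dab2 (0.012) turned between YAP/TAZ siRNA and 2i control, where Cubn (-0.061) turned too. Pdgfra (0.0081) turned in 2i control with the mean of all probe sets. That mean also turned Sox7 (-0.034) and Pdgfra (0.085) under YAP/TAZ siRNA. Centring turned Sox7 (0.06) and Sox17 (0.0017) in 2i control and Sox17 (0.12) under YAP/TAZ siRNA, and further quantile normalization turned Sox7 (-0.018) and Sox17 (0.052) under YAP/TAZ siRNA. The Actb covariate turned Gata4 (-0.16) and Sox7 (0.023) in 2i control and Gata4 (-0.19) under YAP/TAZ siRNA. Control siRNA 1 alone turned Sox7 (-0.019) and Sox17 (0.024) under YAP/TAZ siRNA and Sox7 (-0.0013) against 2i control. Mix 1 alone turned Sox7 (-0.11) against PD-only control, and Gata6 (0.024) and Sox7 (-0.052) against 2i control; mix 2 alone turned Sox17 (0.0021). With single arrays left out, YAP/TAZ siRNA minus PD-only control ranged from -0.07 to 0.065 for Sox17, from -0.005 to 0.069 for Sox7 and from -0.0029 to 0.047 for Afp, and YAP/TAZ siRNA minus 2i control from -0.063 to 0.025 for Gata4. The cause of these moves was not tested. Replicate letters were shared between groups, but deviations of the 51 same-letter pairs of arrays correlated at -0.077 to 0.12 and 9 of 22 arrays were closest to their own letter, so letters were not taken as pairs; the replicate block changed no count, with 6 genes lower in 2i control and 5 under YAP/TAZ siRNA, Dab2 at -3.05 and -3.53. The signal of most of these genes is near the bottom of the array scale, which limits what a lack of difference can show.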

Other observations

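The extraembryonic endoderm genes outside the 10 were not all at their 2i level under YAP/TAZ siRNA. Of 29 measured, 6 were higher and 15 lower than in 2i control by limma at an adjusted p below 0.05, where 25.5% and 22.8% of all genes were. The largest difference was that of Fst, which averaged 8.76 in 2i control, 8.40 in PD-only control and 6.34 under YAP/TAZ siRNA. Called differences of 2-fold or more were seen for 2 lower genes, Fst and Srgn, and 0 higher genes. The basement membrane genes Col4a1 (-0.51 ± 0.04) and Col4a2 (-0.46 ± 0.05), the collagen chaperone gene Serpinh1 (-0.99 ± 0.03) and the proteoglycan gene Srgn (-1.23 ± 0.03) were lower. The laminin gene Lamb1 (0.42 ± 0.03), the transcriptional regulator Cited1 (0.81 ± 0.05) and the parathyroid hormone receptor gene Pth1r (0.89 ± 0.12), which marks parietal endoderm, were higher. Lrp2 differed by -0.04 ± 0.05 and was not called. These genes were picked after their values were seen.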
